A study of Mus musculus with 6 samples.

Results

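The 10 genes described here form the gp130, Stat3 and Socs3 signalling route, taken by symbol from a table of 24419 genes measured in 6 RNA sequencing libraries. They are the cytokine genes Lif and Cntf, the receptor genes Il6st, Lifr, Osmr, Il6ra and Cntfr, the transcription factor gene Stat3, and the feedback genes Socs3 and Socs2. All 10 were found in the table, and 9 had a level of at least 1 in at least 3 libraries and were tested, Cntf being the exception. The libraries came from sorted cells of male mouse cortex beside an infarct, taken on day 4 after the middle cerebral artery had been blocked for 60 minutes. The 3 libraries labelled cKO carry the genotype Slc17a7-cre; Slc32a1-cre; Padi4flox/flox, in which Cre is driven from genes of glutamatergic and GABAergic neurons. The 3 libraries labelled control are Padi4flox/flox, with the same floxed alleles and the same occlusion but no Cre. The comparison asks which transcripts of peri-infarct neurons differ when Padi4, the gene of a histone-citrullinating enzyme, is deleted in neurons. Neither ages nor the number of animals behind a library was stated in the labels used here; p-values therefore reflect spread among these libraries, part of which may be technical.

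Cytokines of the interleukin-6 family signal through gp130, the shared receptor chain encoded by Il6st. LIF and CNTF bring gp130 together with the LIF receptor chain, oncostatin M uses gp130 with the chain encoded by Osmr, and interleukin-6 and CNTF first need the alpha chains encoded by Il6ra and Cntfr. The bound receptors activate Janus kinases, which phosphorylate STAT3; STAT3 then enters the nucleus and switches on genes that include Socs3, whose product blocks the kinases and gp130 in turn. In injured brain this route is known for driving astrocyte reactivity, and in injured neurons Socs3 is known as a brake on axon regrowth.

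Upstream sequences are shown for 4 of the genes: Socs3, the textbook STAT3 target of the group, and Il6st, Osmr and Lif, whose levels were high and low in the same libraries. Of the 10 symbols, 9 matched RefSeq promoter entries of build GRCm38.p6, with 15 start sites, and the 250 bases before each start were searched. The 2 motifs were the STAT motif TTCNNNGAA and the AP-1 motif TGANTCA; each reads the same on both strands, and the 2 did not overlap in any window printed. Capitals mark a match, and each sequence runs 5′ to 3′ on the gene's own strand up to the base before the start.
Socs3, chr11:117969367-117969616, minus strand: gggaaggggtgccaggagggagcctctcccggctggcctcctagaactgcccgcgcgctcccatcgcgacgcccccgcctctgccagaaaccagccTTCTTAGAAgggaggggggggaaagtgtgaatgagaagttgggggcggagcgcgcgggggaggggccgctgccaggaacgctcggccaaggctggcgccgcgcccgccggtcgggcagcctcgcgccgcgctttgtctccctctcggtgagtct
Il6st, chr13:112463820-112464069, plus strand: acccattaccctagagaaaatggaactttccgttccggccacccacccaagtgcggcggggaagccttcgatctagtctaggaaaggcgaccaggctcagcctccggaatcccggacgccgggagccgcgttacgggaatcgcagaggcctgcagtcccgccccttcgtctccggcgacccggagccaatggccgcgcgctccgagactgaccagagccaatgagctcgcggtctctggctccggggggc
Osmr, chr15:6874314-6874563, minus strand: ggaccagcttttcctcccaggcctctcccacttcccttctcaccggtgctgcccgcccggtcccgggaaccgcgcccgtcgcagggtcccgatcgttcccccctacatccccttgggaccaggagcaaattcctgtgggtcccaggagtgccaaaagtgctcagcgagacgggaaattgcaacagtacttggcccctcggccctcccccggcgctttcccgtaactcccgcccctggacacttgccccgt
Lif, chr11:4257318-4257567, plus strand: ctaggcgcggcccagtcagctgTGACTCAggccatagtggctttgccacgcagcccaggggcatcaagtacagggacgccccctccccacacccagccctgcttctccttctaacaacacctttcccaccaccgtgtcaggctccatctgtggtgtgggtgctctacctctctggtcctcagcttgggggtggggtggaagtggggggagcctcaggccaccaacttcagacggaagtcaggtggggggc
The Socs3 window held 1 STAT motif, TTCTTAGAA, from 154 to 146 bases before the start. The window belongs to the RefSeq start, and its lower end lies 180 bases upstream of the coding transcript that GENCODE release M21 annotates. By the outer ends of genes in that release, the Socs3 and Osmr windows lie inside the gene, and the Lif window reaches into it. The Lif window held 1 AP-1 motif, TGACTCA, from 228 to 222 bases before the start, and the Cntf window held another. Il6st and Osmr had neither motif in these windows. Of the 9 matched genes, 1 had the STAT motif, 2 the AP-1 motif and 6 neither. Counted by window, 1 of the 15 held the STAT motif and 2 of the 15 the AP-1 motif. Among all 32851 promoter windows of this length, 7.02% held the STAT motif and 6.75% the AP-1 motif.

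Recovered depth ran from 10094145 to 24056755 reads in the libraries labelled cKO and from 10638387 to 18502027 in those labelled control. The libraries numbered 2 had the fewest genes with any read, 14042 in cKO and 15261 in control, against 16818 to 17891 in the others. Padi4 did not bear out the labels, with 0, 3 and 12 reads in cKO replicates 1, 2 and 3 and 0 reads in each control replicate, so directions below are those of the labels. Counts per gene do not show whether those reads fell in the floxed exons. The sort kept Thy1-positive cells without astrocyte, endothelial, leukocyte and oligodendrocyte surface markers. All 8 neuron markers were detected in every library, with sums of 966 to 6074 in the libraries labelled cKO and 2162 to 3038 in those labelled control. All 8 oligodendrocyte markers were detected too, at higher sums of 10570 to 30676 and 20496 to 25254. For the other cell types, sums in the libraries labelled cKO and control were 804 to 1515 and 558 to 977 over 7 astrocyte markers, 842 to 1503 and 1046 to 1253 over 5 oligodendrocyte precursor markers, and 79.3 to 132 and 51.7 to 143 over 8 endothelial markers. Microglia and macrophage markers summed to 28.9 to 69.5 and 39.2 to 69.3 over 9 genes, with C1qa, C1qc and Tmem119 at 0 in some libraries. Over 10 mural cell and fibroblast markers the sums were 2707, 146 and 2652 in cKO replicates 1, 2 and 3, against 4746, 394 and 570 in control replicates 1, 2 and 3. Levels below are the deposited CPM, rescaled per library (scaled CPM), and 3 reads, 0.126 to 0.303 scaled CPM, are taken as the limit of detection.

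No gene of the route passed the test between the groups, and in each of the 10 genes the difference between group means was smaller than the larger of the 2 group SDs. None of the 9 tested genes had an adjusted p under 0.05 in limma, a linear model of log2 levels fitted over all 14796 genes tested, in which 0.0% of genes were called in either direction. Without adjustment 126 genes, or 0.852%, had a p under 0.05, and the route's 9 genes were not among them. In none of the 10 genes, the untested Cntf included, did the groups separate. In 4.7% of tested genes every library of one group lay above every library of the other. For 10 genes, 0 is close to that share. With edgeR and DESeq2 on recovered reads, 0 of the 9 were called either, beside 0.0% and 0.00676% of all genes. Of the 9 genes, 4 had a log2 fold change above 0 and 5 below, beside 48.0% of all genes above 0, and the median was -0.08 beside -0.02 over all genes tested. Fold changes here are on the scale log2(level + 1), as cKO minus control, which understates changes of low genes.

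**Figure D1:**
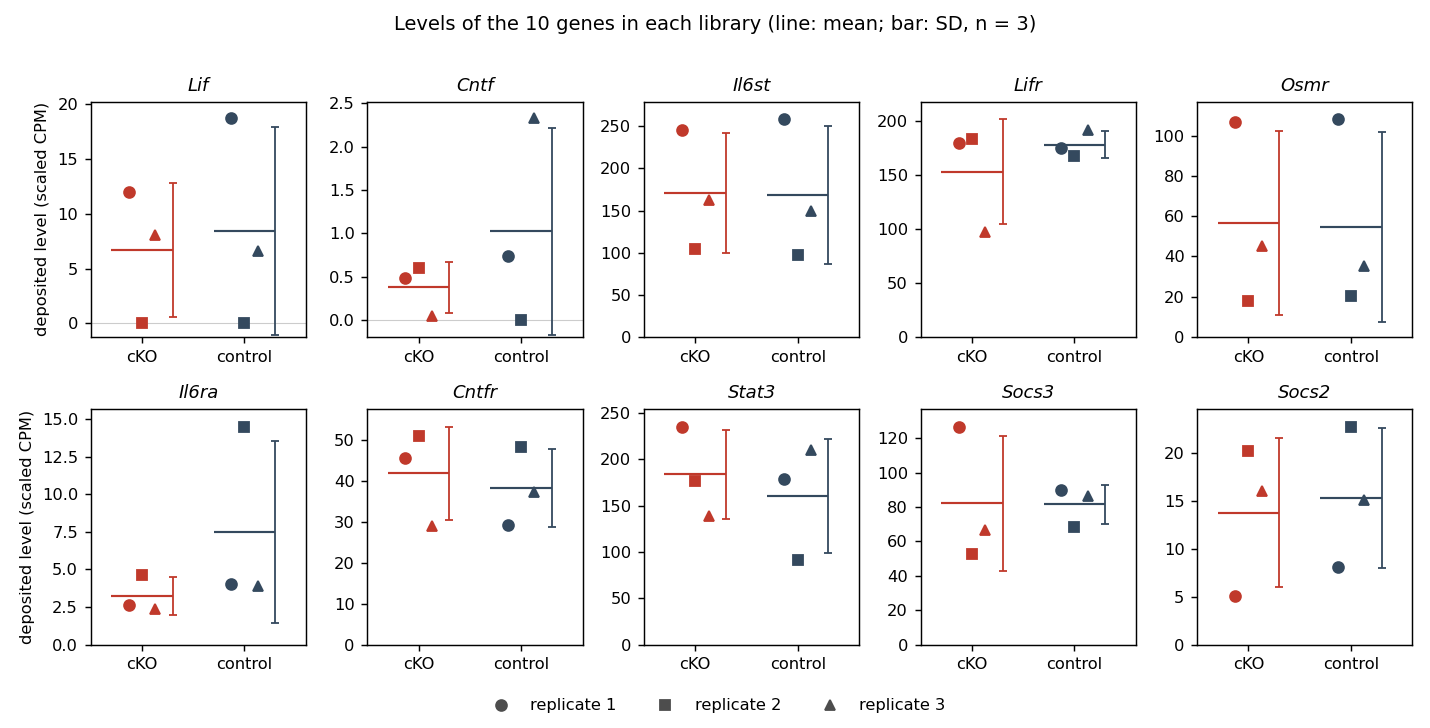
Level of each of the 10 genes (scaled CPM, vertical axis, separate scale per gene) in the 3 libraries labelled cKO (red) and the 3 labelled control (blue), with the mean as a line and the SD as a bar; marker shapes give the replicate number. The groups overlap in every panel, and for Il6st, Osmr and Lif replicate 1 is highest and replicate 2 lowest in both groups.

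The cytokine genes were low. Lif, whose product is a cytokine that injured tissue releases, was at 11.99, 0 and 8.08 scaled CPM in cKO replicates 1, 2 and 3, against 18.7, 0 and 6.56 in control replicates 1, 2 and 3. Both libraries numbered 2 had 0 Lif reads, while the other 4 had 118 to 250. The libraries numbered 2 also had the fewest genes detected, and whether missed transcripts account for zeros there was not tested. The means were 6.69 ± 6.12 in the libraries labelled cKO and 8.42 ± 9.49 in those labelled control (SD, n = 3 each), a log2 fold change of -0.11 (SE 1.22, limma adjusted p = 0.9996). For these counts of 0 the floor of 3 reads was 0.303 scaled CPM in cKO replicate 2 and 0.221 in control replicate 2, and the upper ends of the exact Poisson 95% intervals, for counting error only, were 0.365 and 0.282 CPM.

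Cntf, whose product supports neurons and is known as a factor stored inside glia, was close to the limit of detection. It had 10, 6 and 1 reads in cKO replicates 1, 2 and 3, against 8, 0 and 42 in control replicates 1, 2 and 3. Most of the reads lay in 1 library, control replicate 3, and the groups overlapped. Pooled, this was 0.309 CPM in the libraries labelled cKO, with an exact Poisson 95% interval of 0.180 to 0.495 for counting error only, and 1.18 CPM, with 0.879 to 1.56, in those labelled control. The log2 difference of -0.41 had an exact two-sided permutation p of 0.5, where 3 against 3 can reach 0.1 at the lowest. The whole of Cntf (chromosome 19, 12763660 to 12765632, minus strand, mm10) lies inside Zfp91 on the same strand, and 78.9% of its exon bases are also exon bases of Zfp91, so its reads may belong to either gene.

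Among 6 other ligand genes, 3 were tested, with 1 higher, 2 lower and 0 past the adjusted threshold. Il6, the founding cytokine of the family, was at 29.6, 2.02 and 16.5 in cKO replicates 1, 2 and 3 and at 25.1, 0 and 0.333 in control replicates 1, 2 and 3. The groups overlapped, the library with the second highest level being control replicate 1 (log2 fold change 1.85, SE 1.26, limma adjusted p = 0.9996). Leaving out 1 library moved it between 0.99, without control replicate 2, and 3.35, without control replicate 1. Il11 was at 6.62, 0 and 6.19 in cKO replicates 1, 2 and 3 and at 12.4, 0 and 3.44 in control replicates 1, 2 and 3, with zeros in the same 2 libraries as Lif. Clcf1, which encodes a second ligand of the CNTF receptor, was at 1.92, 0 and 2.53 in cKO replicates 1, 2 and 3 and at 2.40, 6.18 and 43.7 in control replicates 1, 2 and 3. Its log2 fold change was -2.24 (SE 0.97) and it missed the adjusted threshold in limma (adjusted p = 0.9996); without control replicate 3 the log2 fold change was -1.18. Ctf1, the cardiotrophin-1 gene, with 0 to 25 reads a library, was too low to be tested, at 0.480, 0 and 0.673 in cKO replicates 1, 2 and 3 and 1.66, 0.809 and 1.39 in control replicates 1, 2 and 3. Its groups did not overlap, as in 4.7% of the genes tested in either direction and 2.26% with cKO lower, and the exact two-sided permutation p was 0.1, the smallest possible; it was named after its values were seen. Osm, the oncostatin M gene, was above 0 in 1 library, control replicate 3 (0.333), and Il27 in control replicate 1 (0.369).

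Il6st, the shared gp130 chain (chromosome 13, 112464070 to 112510086, plus strand), was at 246, 105 and 163 in cKO replicates 1, 2 and 3, against 259, 97.6 and 149.8 in control replicates 1, 2 and 3. Levels spanned 2.65-fold between libraries, and the means were 171 ± 70.9 in the libraries labelled cKO and 169 ± 82.2 in those labelled control (SD, n = 3 each). The log2 fold change was 0.05 (SE 0.43, limma adjusted p = 0.9996), with a 95% interval of -0.90 to 1.00, or 0.535-fold to 2.00-fold. Osmr, the oncostatin M receptor chain (chromosome 15, 6813577 to 6874969, minus strand), was at 107, 17.8 and 45.0 in cKO replicates 1, 2 and 3, against 108, 20.3 and 35.1 in control replicates 1, 2 and 3. It spanned 6.09-fold between libraries, in the same order of replicate numbers as Il6st in each group (log2 fold change 0.05, SE 0.71, 95% interval -1.51 to 1.61).

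Lifr, the LIF receptor chain (chromosome 15, 7090614 to 7197489, plus strand), is the neighbour of Osmr, with 216 kb between them, and did not follow its pattern. It was at 180.0, 183 and 97.3 in cKO replicates 1, 2 and 3, against 176, 168 and 192 in control replicates 1, 2 and 3. Of these libraries 5 lay within 168 to 192, and cKO replicate 3 stood below them. That library had the highest neuron marker sum (6074) and the lowest oligodendrocyte (10570) and microglia and macrophage (28.9) sums. The log2 fold change was -0.27 (SE 0.33, 95% interval -0.996 to 0.455), and without cKO replicate 3 it was 0.03. The level of Osmr relative to Lifr was 0.594, 0.0970 and 0.462 in cKO replicates 1, 2 and 3 and 0.616, 0.121 and 0.183 in control replicates 1, 2 and 3, a 6.36-fold span between libraries in a ratio that library scaling cancels.

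Of the alpha chains, Cntfr was in the middle of the route's levels and Il6ra near the low end. Cntfr, which binds CNTF, was at 45.6, 51.1 and 29.1 in cKO replicates 1, 2 and 3 and at 29.3, 48.4 and 37.3 in control replicates 1, 2 and 3. Its span between libraries, 1.75-fold, was the smallest of the 9 members tested (log2 fold change 0.12, SE 0.38). Il6ra, which binds interleukin-6, was at 2.64, 4.65 and 2.36 in cKO replicates 1, 2 and 3, against 4.06, 14.5 and 3.89 in control replicates 1, 2 and 3. The 2 libraries with the highest level were the ones numbered 2, and the groups overlapped through cKO replicate 2. Its log2 fold change, -0.82 (SE 0.69, limma adjusted p = 0.9996), was the largest in size among the 9 genes and was -0.28 without control replicate 2. An antisense gene, Gm42809, covers 281 bases at the 5′ end of Il6ra, and whether reads were counted by strand is not stated in the labels. Of 3 other receptor genes, Il11ra1, for interleukin-11, was tested, at 15.1 ± 7.96 in the libraries labelled cKO and 7.53 ± 4.71 in those labelled control (log2 fold change 1.02, SE 0.68); without control replicate 2 the log2 fold change was 0.42, without cKO replicate 2 it was 0.64, and without both it was 0.041. Il27ra was above 0 in control replicate 1 alone (0.737), and Il31ra in cKO replicate 3 (0.758) and control replicate 1 (0.277).

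**Figure D2:**
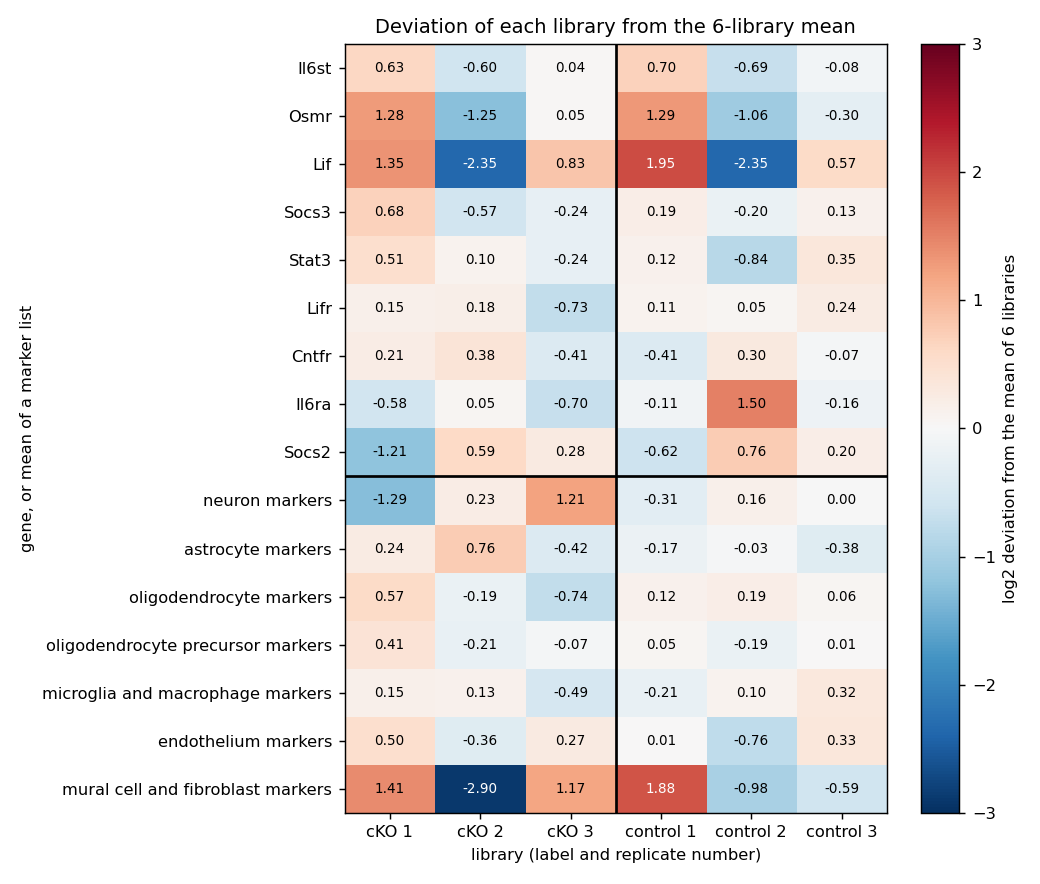
Log2 deviation of each library (columns, cKO left and control right) from the mean of the 6 libraries, for the 9 tested genes (upper rows) and the mean log2 level of 7 marker lists (lower rows). Il6st, Osmr and Lif are high in both replicates 1 and low in both replicates 2, as are the mural cell and fibroblast markers, which are also high in cKO replicate 3 (1.17).

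The gene pair with the most similar pattern was Il6st and Osmr, with a Pearson r of 0.99 over the log2 levels of the 6 libraries. Lif followed both (r = 0.95 with Il6st and 0.92 with Osmr), and Socs2 ran opposite to them (r = -0.93 with Il6st and -0.94 with Osmr). Mural cell and fibroblast markers moved with Il6st, Osmr and Lif, with r of 0.88, 0.91 and 0.89 for the mean log2 level of the 10 markers. The match was loose in cKO replicate 3, whose marker sum (2652) was close to that of cKO replicate 1 (2707). Il6st was at 163 there against 246 in cKO replicate 1, and Osmr at 45.0 against 107. Endothelial markers (r = 0.744, 0.692 and 0.832) and oligodendrocyte precursor markers (r = 0.822, 0.841 and 0.726) also moved with Il6st, Osmr and Lif, over narrower ranges of summed level. Col1a1, Col3a1, Dcn and Pdgfrb are among the 10 mural cell and fibroblast markers. Of those 10, 9 were above 0 in every library, while Lum was at 0 in cKO replicate 2. The oligodendrocyte precursor markers further moved with Socs3 (r = 0.951) and against Socs2 (r = -0.945), over summed levels of 842 to 1503. These correlations describe 6 points that share library, depth and cell makeup, and the part of cell makeup in any level was not tested. In sorted bulk RNA, fewer cells of a type and less RNA per cell cannot be told apart.

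**Figure D3:**
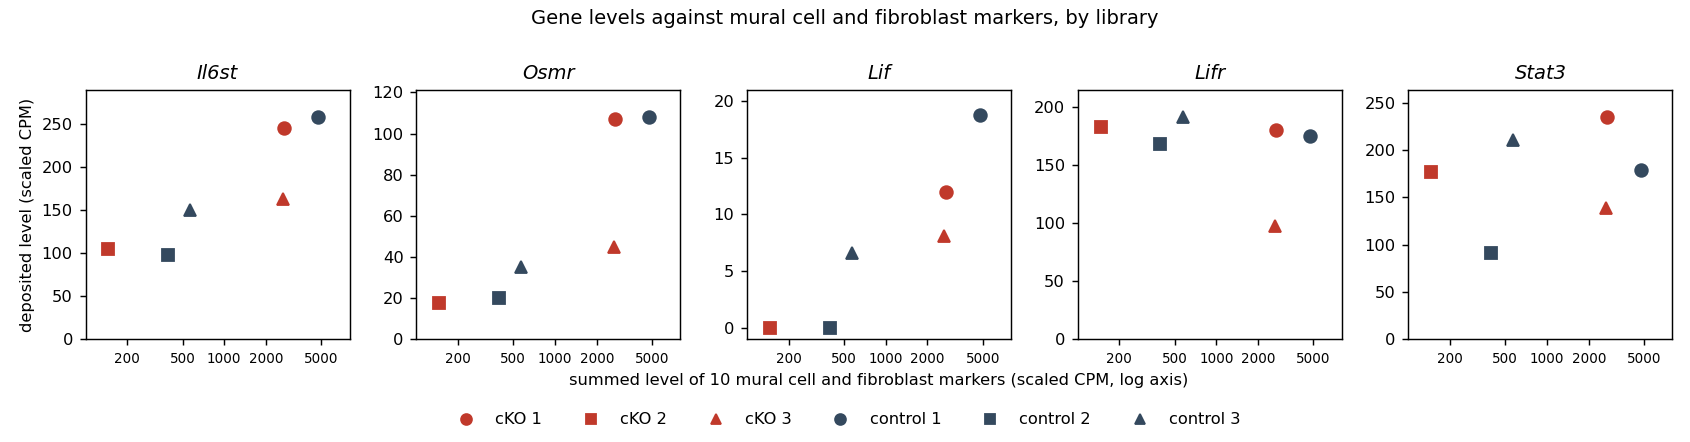
Level of Il6st, Osmr, Lif, Lifr and Stat3 (scaled CPM, vertical axes) against the summed level of 10 mural cell and fibroblast markers (scaled CPM, log axis) in the 3 libraries labelled cKO (red) and the 3 labelled control (blue). The 2 libraries with marker sums of 146 and 394 have the lowest Il6st, Osmr and Lif, and the 2 replicates 1, with sums of 2707 and 4746, the highest, while Lifr has its lowest level (97.3) at a sum of 2652. At that sum, in cKO replicate 3, Il6st (163) and Osmr (45.0) lie below their levels in cKO replicate 1 (246 and 107).

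Stat3 (chromosome 11, 100885098 to 100939540, minus strand) was at 235, 176 and 139 in cKO replicates 1, 2 and 3, against 179, 91.3 and 210.2 in control replicates 1, 2 and 3. The groups overlapped throughout, with the highest library labelled cKO and the lowest labelled control, and means of 184 ± 48.5 in the libraries labelled cKO and 160.1 ± 61.6 in those labelled control (SD, n = 3 each). The log2 fold change was 0.25 (SE 0.38, limma adjusted p = 0.9996), with a 95% interval of 0.666-fold to 2.12-fold. Leaving out control replicate 2, its lowest library, turned it to -0.11. Stat3 shares 72 bases at its 3′ end with Stat5a on the opposite strand.

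The kinases above STAT3 and the genes Stat5a and Stat5b showed no call either. Of 8 genes for Janus kinases and adaptors, 5 had a log2 fold change above 0 and 3 below, the median being 0.13, and 0 passed the adjusted threshold. Jak1, the kinase that gp130 depends on most, averaged 205 ± 73.6 in the libraries labelled cKO and 174 ± 52.1 in those labelled control. Jak2 was at 157 ± 63.6 and 160.3 ± 45.3, Tyk2 at 36.3 ± 14.9 and 25.05 ± 5.69, and Ptpn11, the phosphatase that docks on gp130, at 236 ± 109 and 219.9 ± 56.6 in the libraries labelled cKO and control. Stat5b averaged 19.4 ± 6.64 in the libraries labelled cKO and 35.8 ± 14.9 in those labelled control, and Stat5a, its close paralog, 9.15 ± 7.37 and 9.64 ± 4.58.

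Socs3 (chromosome 11, 117966079 to 117970047, minus strand) is the gene whose STAT motif before the RefSeq start is printed above. It was at 127, 52.8 and 66.6 in cKO replicates 1, 2 and 3, against 90.0, 68.5 and 86.2 in control replicates 1, 2 and 3. The libraries labelled cKO held both the highest and the lowest level, around closely spaced controls. Means were 82.1 ± 39.3 in the libraries labelled cKO and 81.6 ± 11.5 in those labelled control (SD, n = 3 each), and the log2 fold change was -0.08 (SE 0.37, 95% interval 0.531-fold to 1.68-fold, limma adjusted p = 0.9996). Relative to Stat3, Socs3 was at 0.539, 0.2995 and 0.479 in cKO replicates 1, 2 and 3 and at 0.503, 0.750 and 0.410 in control replicates 1, 2 and 3.

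Socs2, the suppressor known for restraining growth hormone signalling, was at 5.09, 20.2 and 16.04 in cKO replicates 1, 2 and 3, against 8.11, 22.8 and 15.1 in control replicates 1, 2 and 3. It ran in the reverse order of Il6st, lowest in both replicates 1 and highest in both replicates 2 (log2 fold change -0.22, SE 0.64). Of 9 other feedback genes 8 were tested, with 4 higher, 4 lower and 0 past the adjusted threshold. Socs1, the suppressor of interferon signalling, averaged 2.68 ± 2.33 in the libraries labelled cKO and 6.26 ± 3.32 in those labelled control (log2 fold change -1.21, SE 0.80); without cKO replicate 2, which had 0 reads, the log2 fold change was -0.44, and without both libraries numbered 2 it was -0.55. Cish was at 2.76 ± 4.65 and 1.06 ± 1.02, and Pias3, whose product binds STAT3, at 34.6 ± 27.2 and 23.3 ± 12.02 in the libraries labelled cKO and control.

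**Figure D4:**
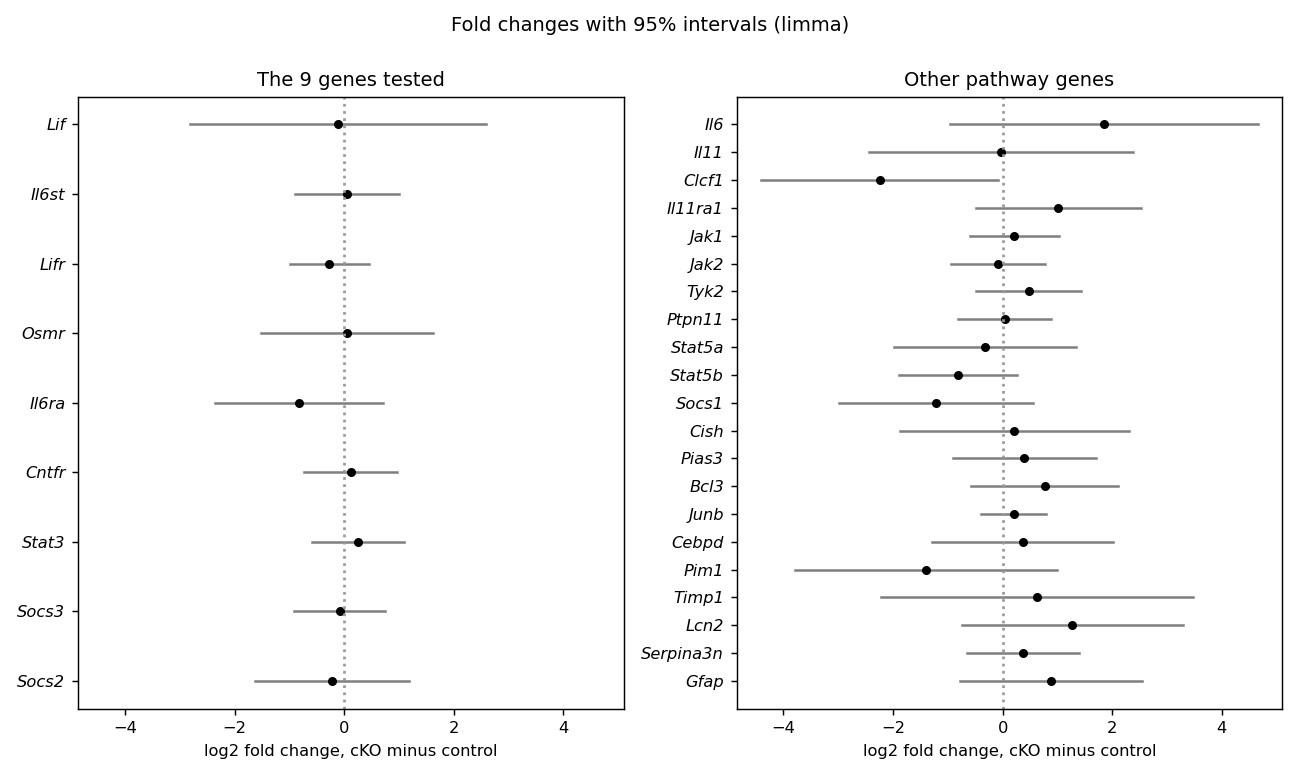
Log2 fold change (cKO minus control, horizontal axis) with its 95% interval from limma for the 9 tested genes (left) and 21 other named genes of the route (right). The intervals of all 9 genes span 0, and Clcf1, whose interval on the right does not, missed the adjusted threshold.

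Genes known to respond to STAT3 did not separate the groups as a set. Of 23 such genes 22 were tested, with 9 higher, 13 lower, 0 past the adjusted threshold and a median log2 fold change of -0.04 (-0.02 over all genes tested). The responders given singly below lean to the higher side of this list, Pim1 alone among them having a log2 fold change below 0. The tested responders not given singly were all below 0 except Sbno2 (0.15) and A2m (1.43). Junb, an AP-1 subunit gene, was at 200.1, 183 and 186 in cKO replicates 1, 2 and 3, against 170.2, 166 and 157 in control replicates 1, 2 and 3. It was the 1 gene of the 22 whose groups did not overlap with cKO higher, as in 2.45% of all genes tested, and 0 were lower, as in 2.26%. Its log2 fold change was 0.20 (SE 0.27, limma adjusted p = 0.9996). Serpina3n, an acute-phase protease inhibitor gene and the most abundant of the named responders, was at 1209, 981 and 604 in cKO replicates 1, 2 and 3, against 915, 376 and 956 in control replicates 1, 2 and 3. Gfap, the astrocyte filament gene, was at 93.1, 289.8 and 30.8 in cKO replicates 1, 2 and 3, against 51.1, 107 and 23.8 in control replicates 1, 2 and 3, with the highest level in the library that also had the highest astrocyte marker sum (1515). The group means of Cebpd were 30.2 ± 15.1 in the libraries labelled cKO and 28.8 ± 24.5 in those labelled control, and those of Bcl3 23.28 ± 12.05 and 12.9 ± 6.11. The log2 fold change of Bcl3 was 0.77 (SE 0.60), 0.36 without control replicate 2 and 0.029 without both libraries numbered 2. Pim1, a kinase gene, was at 9.40, 0 and 8.59 in cKO replicates 1, 2 and 3 and at 9.22, 3.16 and 42.0 in control replicates 1, 2 and 3. Its log2 fold change, -1.40, was -0.29 without cKO replicate 2, -0.49 without control replicate 3 and -2.18 without control replicate 2. Timp1 was at 13.4, 0.404 and 52.4 in cKO replicates 1, 2 and 3 and at 27.7, 1.91 and 2.5002 in control replicates 1, 2 and 3, low in both libraries numbered 2. Lcn2, the lipocalin-2 gene, reached 15.7 in cKO replicate 2 and was at 0.278 to 1.77 in the other 5 libraries.

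Per kb of exon in GENCODE M21, Socs3 had the highest mean level of the 10 genes over the 6 libraries, 28.3 ± 8.96 scaled CPM per kb (SD, n = 6). Stat3 followed at 18.0 ± 5.38, then Lifr at 15.4 ± 3.21, Il6st at 15.3 ± 6.18 and Cntfr at 14.4 ± 3.47. The ranges of neighbours in this order overlapped, and Lifr was above Il6st in 3 of 6 libraries. Below Cntfr came the 1 gap in the order, with Osmr at 4.59 ± 3.43 and under Cntfr in all 6 libraries without overlap of the ranges. Lif was at 1.74 ± 1.66, Socs2 at 1.53 ± 0.717, Cntf at 0.652 ± 0.796 and Il6ra at 0.619 ± 0.528 scaled CPM per kb, with overlapping ranges between neighbours. Exon length is the union over annotated transcripts, so a gene that uses short transcripts is understated.

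**Figure D5:**
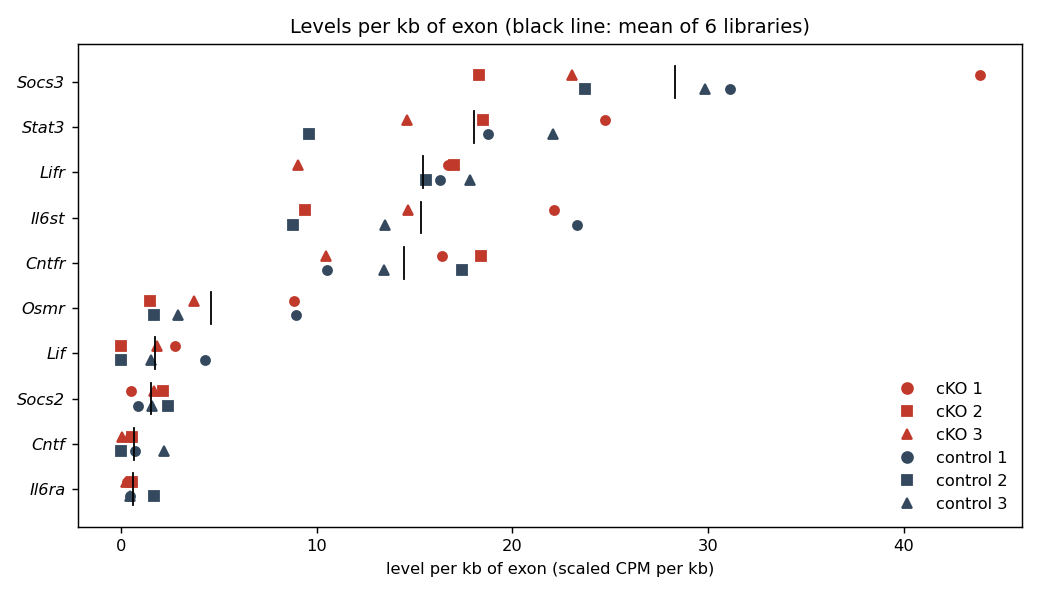
Level per kb of annotated exon (scaled CPM per kb, horizontal axis) of each gene in the libraries labelled cKO (red, upper row of each gene) and control (blue, lower row), with the mean of the 6 libraries as a black line. Socs3, Stat3, Lifr, Il6st and Cntfr have means of 14.4 to 28.3, and Osmr and the genes below it means of at most 4.59.

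The genes most like Il6st across the 6 libraries, among all 14796 tested, were Cldn34c1 (r = 0.997), Sulf1 (r = 0.995), which encodes a heparan sulfate editing enzyme, and Rab18 (r = 0.994). Cldn34c1 was low, at most 3.78 scaled CPM, with 0.404 in cKO replicate 2 and 0.221, the limit of detection there, in control replicate 2. Sulf1 was at 84.0, 10.7 and 39.8 in cKO replicates 1, 2 and 3 and at 109, 9.86 and 32.2 in control replicates 1, 2 and 3. For Stat3 they were Pla2g6 (r = 0.996), Shc3 (r = 0.996), a neuronal adaptor gene, and Matn4 (r = 0.994). For Socs3 they were Anks1b (r = 0.997), Dync1i2 (r = 0.995), a dynein subunit gene, and Ptpn12 (r = 0.993). With 6 points and this many genes, values of this size describe likeness only.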

How the data were processed

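RNA of 6 libraries was measured, 3 labelled cKO and 3 labelled control, grouped by their titles. Per the labels' protocols, trimmed peri-infarct tissue was treated with pronase for 75 minutes and sorted, and the Ovation SoLo kit was used for library preparation. Trimmomatic, HISAT2, featureCounts, edgeR and the build mm10 appear in the submitters' processing notes, with no versions; strand and multi-mapping settings: not given in the sources used here. The authors deposited 1 normalized signal per gene and library, CPM rescaled per library: column totals ran from 961962 to 1027958, where plain CPM had been assumed. At least 99.977% of nonzero values lay within 0.001 of a whole multiple of 1 step, so whole reads were recovered.

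The 14796 genes that reached 1 in 3 or more libraries were fitted with limma 3.58.1 (R 4.3.3, trend) on log2(value + 1), with Benjamini-Hochberg adjustment over all of them and a threshold of 0.05. Exact two-sided permutation tests are given for Cntf and Ctf1, and exact Poisson intervals for Cntf and Lif. Intervals and floors cover counting error only, since reads without molecular identifiers may be copies. The fit was checked on simulated data. Alternatives were other pseudocounts, filters and scalings, a replicate block, leaving out libraries, edgeR 4.0.16 and DESeq2 1.42.0 on recovered reads.

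The members and lists were chosen with earlier results of these data known. Of the fixed lists, 2 genes are not reported here and are in no list count. Named are all 10 members; ligand and receptor genes; Stat5a and Stat5b; Jak1, Jak2, Tyk2, Ptpn11, Socs1, Cish and Pias3; 8 STAT3-responsive genes; and the 3 genes most like Il6st, Stat3 and Socs3 by Pearson r. Ligand and receptor genes too low to test, and marker genes named singly, were chosen after their values were seen.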

Additional observations from a re-analysis of the deposited data

How the results depend on the processing

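None of the 9 tested members passed an adjusted p of 0.05 under any of the 16 alternatives in which it was tested (Il6ra dropped out at a filter of 5), and over all genes the count of calls stayed at 0 higher and 0 lower in limma and edgeR; DESeq2 on recovered reads called 1 gene lower, Ifit3, and 0 higher. Unadjusted, limma had 50 genes higher and 76 lower at a p under 0.05, edgeR 41 and 32, and DESeq2 97 and 78. The direction of members rested on single libraries: leaving out 1 library, log2 fold changes (cKO minus control) ran from -1.31 to 1.03 for Lif, -0.29 to 0.41 for Il6st, -0.43 to 0.027 for Lifr, -0.58 to 0.71 for Osmr, -1.11 to -0.28 for Il6ra, -0.057 to 0.35 for Cntfr, -0.11 to 0.49 for Stat3, -0.44 to 0.18 for Socs3 and -0.59 to 0.33 for Socs2, so that 8 of 9 members changed sign at least once and Il6ra did not. Among the other named genes the same happened for 10, with -1.02 to 0.92 for Il11, -0.90 to 0.40 for Stat5a, -0.052 to 0.46 for Jak1, -0.35 to 0.28 for Jak2, -0.82 to 0.78 for Cish, -0.31 to 0.34 for Ptpn11, -0.19 to 0.81 for Pias3, -0.47 to 1.04 for Cebpd, -0.56 to 2.06 for Timp1 and -0.064 to 0.66 for Serpina3n. Without both libraries numbered 2, the sign turned for Stat3 (-0.098), Socs3 (0.062), Stat5a (0.094), Ptpn11 (-0.12), Cebpd (-0.70) and Serpina3n (-0.13). It also turned for Il6st with DESeq2 (-0.001), Socs3 with edgeR (0.009), Il11 under quantile normalization (0.054) and Cish at a pseudocount of 0.1 (-0.36); the cause was not tested. The other 285 of 295 values kept their direction. Among them, those under a changed filter or the replicate block repeat the main log2 fold change by construction, so their direction could not change. Same-numbered libraries deviated together by r of 0.49, 0.30 and 0.03 over 14796 genes for numbers 1, 2 and 3. Each library correlated best with its own number, but for number 3 the margin was slight. Control replicate 3 had an r of 0.034 with cKO replicate 3 and of 0.028 with cKO replicate 2. For numbers 1 and 2 this is a hint from the data and not from the design. With a replicate block in limma, 0 genes were called (110 higher and 197 lower unadjusted). In this balanced layout the block cannot move a log2 fold change, which is 0.05 for Il6st and Osmr either way. The SE was 0.24 for Il6st and 0.31 for Osmr with the block, against 0.43 and 0.71 without it. Counts of 0 or a few reads in most libraries limit what can be said of Cntf, Osm, Il27 and Il27ra, and whether depth accounts for them was not tested. At 3 libraries a group, the 95% intervals of the 9 tested members have upper ends of 1.37-fold (Lifr) or more. Their lower ends are 0.666-fold (Stat3) or less.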
